A study of Mus musculus with 2 samples.

Results

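From the 32285 genes of the matrices, 10 whose products drive or accompany cell division were followed through 2 mouse liver libraries: Mki67, Top2a, Cenpf, Cenpe, Ccnd1, Ccnb1, Cdk1, Pcna, Mcm6 and Stmn1. The genes were chosen by name. All 10 were found in the matrices under the identifiers of GENCODE vM21 on mm10, where each is annotated as protein-coding.

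Both mice were 11 weeks old and carried floxed Glul alleles (Glul f/f), so the control carried the floxed gene too, and neither bore a tumour. Glul encodes glutamine synthetase. The control mouse received AAV8-GFP and the mouse called GS_KO received AAV8-Cre. AAV8 is a viral vector that chiefly enters hepatocytes, and the sources used here do not name the promoter that drives Cre. Livers were digested with collagenase II at 0.3 mg/mL 2 weeks after the virus, and hepatocytes were sequenced with purified non-parenchymal cells. Each group is 1 library from 1 mouse, so no test between conditions is possible and no p-value is given. Every interval below is an exact 95% interval (Poisson for a level, conditional binomial for a ratio, Clopper-Pearson for a share) and covers counting error only, not the spread between mice.

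A dividing cell passes from growth (G1) into DNA synthesis (S), a second gap (G2) and mitosis (M). Cyclin D1, the product of Ccnd1, acts with its kinases in G1 to release E2F factors, which turn on S phase genes such as Pcna and Mcm6, while Ccnb1, Cdk1, Top2a, Mki67, Cenpe and Cenpf peak in G2 and mitosis. Most hepatocytes of an adult liver are at rest, and Kupffer cells, the resident macrophages of the liver, can renew themselves by division.

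Barcodes were grouped by their number of UMIs (unique molecular identifiers, each 1 counted RNA molecule). Small barcodes held 200 to under 400 UMIs and large barcodes at least 500. Large barcodes with at least 4 summed UMIs of Clec4f, Vsig4, Cd5l, C1qa, C1qb and C1qc are called Kupffer marker barcodes here, and the rest other barcodes. The control library had 116552 small, 191 Kupffer marker and 13501 other barcodes among 166037. The GS_KO library had 143687 small, 1082 Kupffer marker and 10789 other barcodes among 175937. A list of 12 further Kupffer genes summed to 7278 CPM (counts per 1000000 UMIs of the class) in control and 7706 CPM in GS_KO Kupffer marker barcodes, against 283 and 388 CPM in other barcodes. Markers of hepatocytes were high in both: 63923 and 54964 CPM in Kupffer marker barcodes, 91819 and 85088 CPM in other barcodes. Kupffer marker barcodes therefore also held hepatocyte RNA, and which small barcodes are cells was not tested. Doublets were not called or removed.

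Glul stood at 114 CPM over all control barcodes and at 13.9 CPM over all GS_KO barcodes. The sources used here do not say where the floxed exons lie relative to the 5-prime reads, so these UMIs may not report the deletion fully. In Kupffer marker barcodes it stood at 110 CPM (60.0 to 184) in control and 96.9 CPM (76.1 to 122) in GS_KO. Malat1, a transcript kept in the nucleus, was higher in GS_KO other barcodes (24325 against 10416 CPM), and mitochondrial genes took 4.66% of their UMIs against 6.48% in control. The part of these differences in the results below was not tested. The libraries shared 8108 barcode sequences, of which 65 had at least 500 UMIs in both.

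Promoters of 8 of the 10 genes were matched in RefSeq's GRCm38.p6 table, each 300 bases from 250 before to 50 after the gene's start. Ccnd1 and Stmn1 were not matched. Mki67, Top2a and Cdk1 are printed because their transcripts mark G2 and mitosis, and Mcm6 because its transcript marks S phase. Capitals mark matches to 3 motifs: the CCAAT box (CCAAT or ATTGG), the cell cycle homology region (TTTGAA or TTCAAA), which the DREAM complex and its relatives read, and an E2F site (TTTGGCGC, GCGCCAAA, TTTCCCGC or GCGGGAAA). Both strands were searched, and no motif contains another.
Mki67 (chr7:135716330-135716629, minus strand): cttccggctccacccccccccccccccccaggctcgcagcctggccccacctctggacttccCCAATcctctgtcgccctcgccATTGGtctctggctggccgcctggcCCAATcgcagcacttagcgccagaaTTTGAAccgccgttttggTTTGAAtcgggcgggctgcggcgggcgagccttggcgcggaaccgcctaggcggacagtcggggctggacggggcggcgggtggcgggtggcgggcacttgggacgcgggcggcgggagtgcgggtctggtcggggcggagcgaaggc
Top2a (chr11:99024140-99024439, minus strand): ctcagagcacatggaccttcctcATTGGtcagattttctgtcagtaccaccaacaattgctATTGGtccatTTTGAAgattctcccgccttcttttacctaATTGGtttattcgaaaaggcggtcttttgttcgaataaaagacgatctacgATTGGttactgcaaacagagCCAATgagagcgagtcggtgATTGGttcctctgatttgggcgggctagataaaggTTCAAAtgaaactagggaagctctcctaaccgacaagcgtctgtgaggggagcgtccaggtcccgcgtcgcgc
Cdk1 (chr10:69352863-69353162, minus strand): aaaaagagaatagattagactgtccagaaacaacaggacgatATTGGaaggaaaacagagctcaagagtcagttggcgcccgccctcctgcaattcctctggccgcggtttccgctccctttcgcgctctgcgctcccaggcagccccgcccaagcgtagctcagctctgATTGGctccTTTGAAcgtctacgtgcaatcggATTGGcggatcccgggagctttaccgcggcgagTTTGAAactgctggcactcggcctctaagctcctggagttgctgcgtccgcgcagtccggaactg
Mcm6 (chr1:128359656-128359955, minus strand): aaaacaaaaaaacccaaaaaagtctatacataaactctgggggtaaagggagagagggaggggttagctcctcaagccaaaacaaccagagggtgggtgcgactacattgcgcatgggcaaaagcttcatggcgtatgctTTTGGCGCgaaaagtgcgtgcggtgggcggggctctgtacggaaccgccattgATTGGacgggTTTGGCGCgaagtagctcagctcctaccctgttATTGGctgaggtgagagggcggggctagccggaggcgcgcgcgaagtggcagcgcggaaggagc
A CCAAT box was in 8 of the 8 member promoters and in 37.4% of all 32851 promoters of the table. Cdk1, Cenpf, Mki67 and Top2a also held the cell cycle homology region, which was in 17.9% of all promoters, and the pair together was in 6.95%. Mcm6 alone of the 8 held any of the E2F strings searched, with 2 matches, against 1.56% of all promoters. Other forms of the E2F site were not searched. A match is a run of letters and not a shown binding site.

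In GS_KO, the levels of the division genes were higher in Kupffer marker barcodes than in other barcodes. Mki67, whose protein coats mitotic chromosomes, stood at 53.7 CPM there (38.5 to 72.8; 41 UMIs) and at 4.42 CPM (3.11 to 6.09; 37 UMIs) in other barcodes, a 12.2-fold difference (7.60 to 19.5). Top2a, the topoisomerase that untangles sister DNA, stood at 57.6 CPM (44 UMIs) against 5.49 CPM (46 UMIs), 10.5-fold higher (6.78 to 16.2). Stmn1, which destabilises microtubules, stood at 52.4 CPM (40 UMIs) against 5.01 CPM (42 UMIs), 10.4-fold higher (6.61 to 16.5). Each of these 3 levels in Kupffer marker barcodes lay above the upper bound of the level in other barcodes.

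The mitotic kinase and its partner followed. Cdk1 stood at 17.0 CPM (9.06 to 29.1; 13 UMIs) in GS_KO Kupffer marker barcodes and 1.91 CPM (1.09 to 3.10; 16 UMIs) in other barcodes. Ccnb1, the cyclin that activates Cdk1, stood at 13.1 CPM (6.28 to 24.1; 10 UMIs) and 0.835 CPM (0.336 to 1.72; 7 UMIs). The centromere genes Cenpf and Cenpe were 5.49-fold (2.50 to 11.4) and 5.81-fold (2.28 to 13.8) higher, on 12 and 9 UMIs in Kupffer marker barcodes.

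Of the replication genes, Pcna, the sliding clamp of DNA polymerases, stood at 62.9 CPM (46.3 to 83.3) against 12.1 CPM (9.82 to 14.6), and Mcm6, a subunit of the replicative helicase, at 10.5 CPM (8 UMIs) against 1.55 CPM (13 UMIs). The smallest of the 10 differences was that of Ccnd1, 47.1 CPM (33.0 to 65.3) against 21.8 CPM (18.8 to 25.2), 2.16-fold (1.47 to 3.10). All 10 ratios had intervals above 1. Over small GS_KO barcodes, 9 of the 10 genes had intervals above 1 in Kupffer marker barcodes. There Ccnd1 did not, at 1.25-fold (0.875 to 1.74). The median log2 ratio over all genes counted was 0.87 in that comparison.

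A gene was counted as past 2-fold where the sums of both sides together held at least 20 UMIs and the ratio, with 0.5 counts added to each sum, reached 2-fold. In GS_KO, 9 of the 9 members that passed the UMI minimum were past 2-fold higher in Kupffer marker barcodes than in other barcodes and 0 were lower, where 19.2% of the 11809 genes counted were higher and 8.76% lower. Ccnb1 fell under the minimum. Cdk1 (13 against 16 UMIs), Cenpe (9 against 17 UMIs) and Mcm6 (8 against 13 UMIs) reached it only through their UMIs in Kupffer marker barcodes. At the level of other barcodes they would have stayed under it, so nothing is read from their part in that count. The median log2 ratio was 2.98 over all 10 members, 2.79 over the 9 that passed and 0.06 over all genes counted. Kupffer marker barcodes held 8.35% of the UMIs of large GS_KO barcodes, but 52.6% (40.9 to 64.0) of those of Mki67, 48.9% of those of Top2a, 48.8% of those of Stmn1 and 16.4% (11.8 to 22.0) of those of Ccnd1. For Ccnb1, Cdk1 and Mcm6 the share was 58.8%, 44.8% and 38.1%. For Cenpe, Cenpf and Pcna it was 34.6%, 33.3% and 32.2%.

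**Figure D1:**
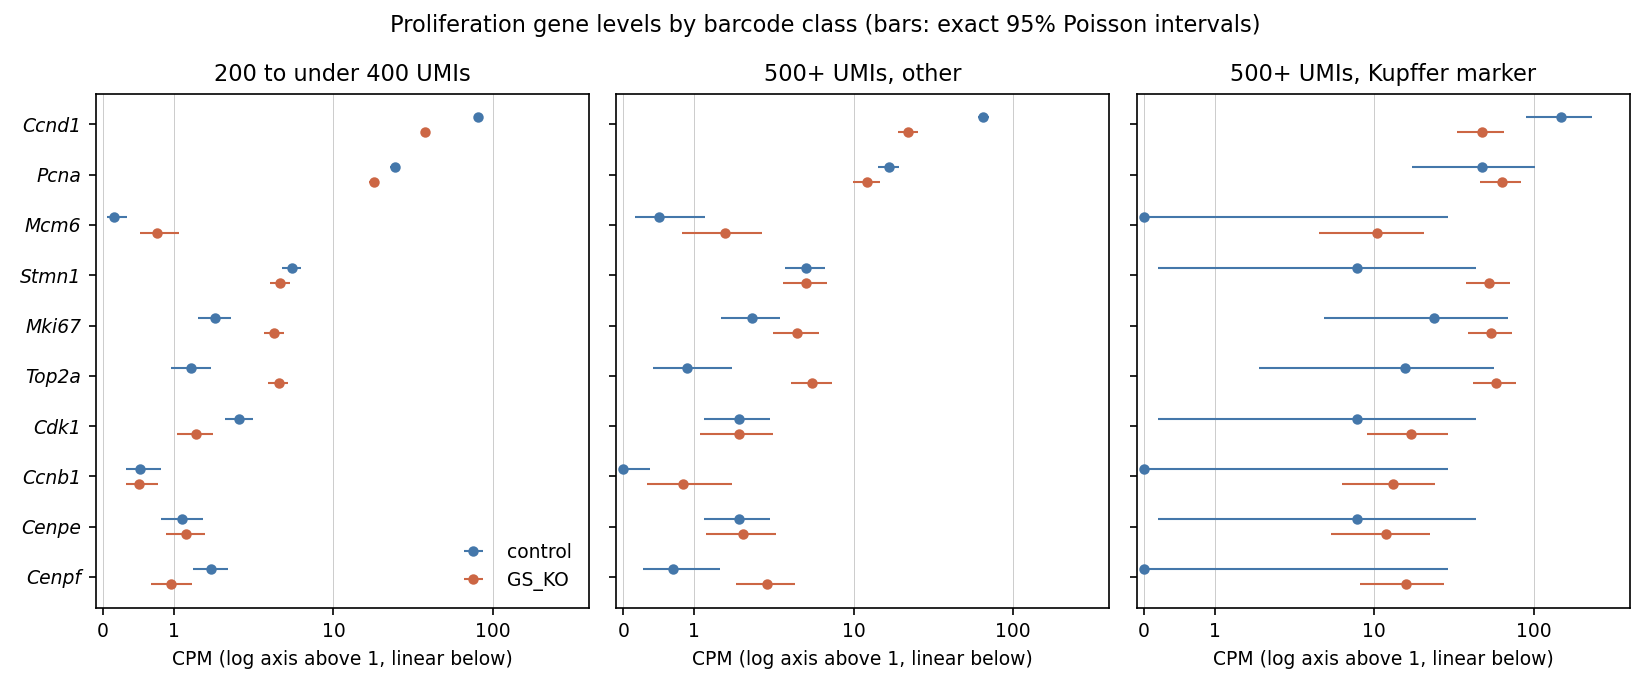
CPM of each gene (horizontal, log scale above 1 and linear below) in small, other and Kupffer marker barcodes of the control and GS_KO libraries; points are levels of summed barcodes and bars exact 95% Poisson intervals. In GS_KO, Mki67, Top2a and Stmn1 lie at 53.7, 57.6 and 52.4 CPM in Kupffer marker barcodes and between 4.25 and 5.49 CPM elsewhere, while Ccnd1 is lower in GS_KO in all 3 panels.

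In control, the same comparison rested on few molecules. The 191 Kupffer marker barcodes held 127512 UMIs in all, and the genes had 0 to 6 UMIs there except Ccnd1 with 19. Mki67 stood at 23.5 CPM (4.85 to 68.8; 3 UMIs) against 2.31 CPM (1.46 to 3.46; 23 UMIs) in other barcodes, 10.2-fold (1.96 to 33.8). Top2a stood at 15.7 CPM (2 UMIs, both in 1 barcode) against 0.902 CPM (9 UMIs), and Pcna at 47.1 CPM (6 UMIs) against 16.5 CPM (165 UMIs). Cenpf, Ccnb1 and Mcm6 had 0 UMIs in control Kupffer marker barcodes, where 3 UMIs would be 23.5 CPM, so levels such as those of GS_KO were not detectable there.

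By the 2-fold rule 6 of the 6 members that passed the minimum were higher in control Kupffer marker barcodes and 0 were lower, where 25.5% of 11137 genes were higher and 9.53% lower. Of these 6, Cenpe, Cdk1 and Stmn1 rest on 1 UMI each and their intervals include 1. Cenpe and Cdk1, with 19 UMIs each in other barcodes, reached the minimum only through that 1 UMI. Intervals above 1 were found for 4 members: Mki67, Top2a, Ccnd1 and Pcna.

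Between the libraries, Ccnd1 and Top2a went in opposite directions. The Ccnd1 level was lower in GS_KO in every class: 80.4 against 37.6 CPM in small barcodes (3061 and 1618 UMIs), 64.7 against 21.8 CPM in other barcodes (646 and 183 UMIs) and 149 against 47.1 CPM in Kupffer marker barcodes (19 and 36 UMIs). The log2 ratios of GS_KO over control were -1.10 (-1.19 to -1.01), -1.57 (-1.81 to -1.33) and -1.68 (-2.50 to -0.78). The levels of the 2 libraries did not overlap within counting error in any of the 3 classes.

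Top2a was higher in GS_KO. Markers of other cells moved with it: the 6 Kupffer rule genes summed to 107 CPM in control and 644 CPM in GS_KO small barcodes and to 78.1 and 305 CPM in other barcodes, and 10 B and plasma cell genes to 83.4 and 366 CPM in other barcodes. Top2a stood at 1.29 CPM in control and 4.53 CPM in GS_KO small barcodes (log2 ratio 1.80, 1.36 to 2.30), and at 0.902 and 5.49 CPM in other barcodes (2.54, 1.56 to 3.82). With only the other barcodes that held 0 Kupffer marker UMIs its log2 ratio was 2.41 (1.33 to 3.81), and without B and plasma cell marker barcodes 2.42 (1.42 to 3.71). In Kupffer marker barcodes it stood at 15.7 and 57.6 CPM, a ratio of 3.67 with an interval from 0.958 to 31.3. Mki67 stood at 1.81 and 4.25 CPM in small barcodes (log2 ratio 1.22, 0.82 to 1.65), at 2.31 and 4.42 CPM in other barcodes (0.93, 0.15 to 1.76) and at 23.5 and 53.7 CPM in Kupffer marker barcodes (0.99, -0.46 to 3.53). Within Kupffer marker barcodes the intervals of both genes include no difference. In other barcodes that of Mki67 did too with 0 Kupffer marker UMIs only (0.82, -0.12 to 1.81), without B and plasma cell marker barcodes (0.73, -0.08 to 1.58) and with free RNA taken off (0.73, -0.27 to 1.82).

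Cenpf stood at 0.702 CPM in control and 2.86 CPM in GS_KO other barcodes (log2 ratio 1.96, 0.77 to 3.49), but at 1.71 and 0.953 CPM in small barcodes (-0.84, -1.44 to -0.26). Ccnb1 had 0 UMIs in control and 7 UMIs in GS_KO other barcodes, a ratio whose interval starts at 1.72-fold, and 0.525 and 0.511 CPM in small barcodes. With the limit at 400 UMIs in place of 500, the other-barcode log2 ratios were 0.78 (-0.02 to 1.56) for Cenpf and 0.62 (-0.94 to 2.09) for Ccnb1, both with intervals that include no difference. Mcm6 stood at 0.158 CPM (6 UMIs) and 0.767 CPM (33 UMIs) in small barcodes, 4.87-fold higher in GS_KO (2.01 to 14.2), and at 0.501 and 1.55 CPM in other barcodes.

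The remaining genes gave smaller or class-dependent values. Stmn1 stood at 5.01 CPM in both libraries in other barcodes (log2 ratio 0.00, -0.63 to 0.62), whereas in Kupffer marker barcodes it had 1 UMI in control and 40 UMIs in GS_KO, a ratio of 6.68 (1.13 to 270). Pcna was lower in GS_KO other barcodes (16.5 against 12.1 CPM; log2 ratio -0.45, -0.83 to -0.09) and in small barcodes (24.2 against 18.0 CPM; -0.43, -0.57 to -0.29). Cdk1 stood at 1.90 and 1.91 CPM in other barcodes and at 2.57 and 1.37 CPM in small barcodes (-0.90, -1.40 to -0.43). Cenpe ratios had intervals that include no difference in all 3 classes.

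By the 2-fold rule, 3 of 10 members were higher in GS_KO small barcodes (Top2a, Mki67 and Mcm6) and 1 lower (Ccnd1), where 13.2% of 13688 genes were higher and 4.25% lower. In other barcodes 2 of 8 were higher (Top2a and, at the 500 but not the 400 UMI limit, Cenpf) and 1 lower, where 14.4% of 12659 genes were higher and 4.53% lower. In Kupffer marker barcodes Top2a and Stmn1 were past 2-fold higher and Ccnd1 lower, where 12.1% of 6525 genes were higher and 6.56% lower. Top2a and Stmn1 reached the UMI minimum there only through GS_KO (44 against 2 and 40 against 1 UMIs), so nothing is read from that count. In other barcodes Top2a and Cenpf also reached it only through GS_KO (46 against 9 and 24 against 7 UMIs). So did Mcm6 in small barcodes (33 against 6 UMIs). Nothing is read from those calls in the counts above either. The lower gene was Ccnd1 each time. The median log2 ratio over all 10 members was -0.15 in small and 0.51 in other barcodes, against -0.01 and 0.11 over all genes counted. Over the 8 members that passed the UMI minimum in other barcodes it was 0.05, not above that of all genes counted.

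**Figure D2:**
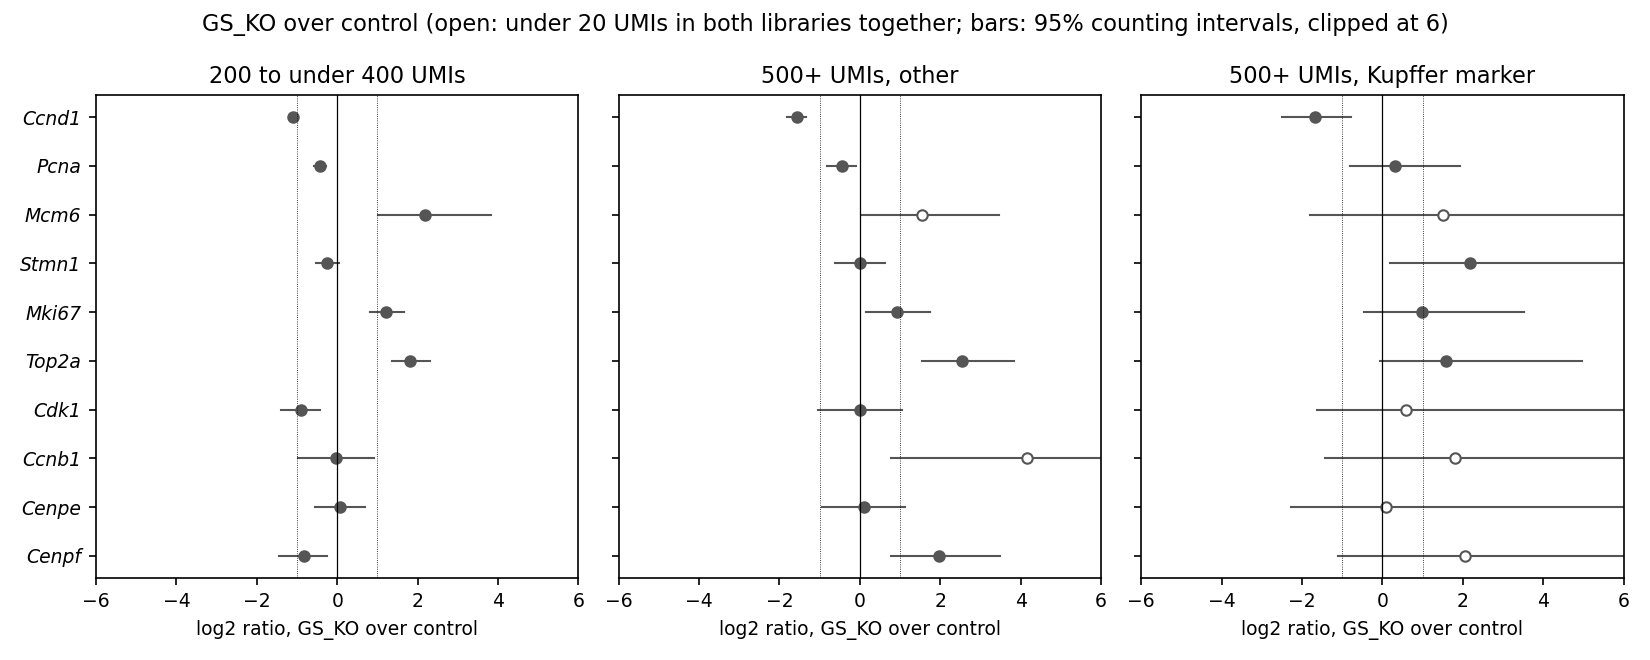
log2 ratio of GS_KO over control (horizontal) for each gene in small, other and Kupffer marker barcodes; bars are 95% counting intervals cut at 6, dotted lines mark 2-fold, and open points fall under 20 UMIs in both libraries together. Ccnd1 lies at -1.10, -1.57 and -1.68, and Top2a at 1.80, 2.54 and 1.57.

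Other GS_KO barcodes were set against small GS_KO barcodes, which were not split by Kupffer markers. The 6 Kupffer rule genes summed to 305 CPM in other and 644 CPM in small GS_KO barcodes. Between these unlike sets, Mki67, Top2a and Stmn1 did not differ beyond counting error. Mki67 stood at 4.42 CPM in other and 4.25 CPM in small GS_KO barcodes (ratio 1.04, 0.709 to 1.48). Top2a stood at 5.49 and 4.53 CPM (1.21, 0.859 to 1.68) and Stmn1 at 5.01 and 4.62 CPM (1.08, 0.758 to 1.52). With all large over small GS_KO barcodes, the ratios were 2.01 (1.52 to 2.63) for Mki67, 2.17 (1.67 to 2.80) for Top2a and 1.94 (1.48 to 2.52) for Stmn1. Cenpf was 3.01-fold higher in other than in small barcodes (1.74 to 5.09). Over all genes counted the median log2 ratio was 0.65 for large over small and 0.49 for other over small GS_KO barcodes. Past 2-fold higher were 38.9% and 35.1% of them. On that scale Mki67, Top2a and Stmn1 stood at 1.01, 1.12 and 0.96 for large over small, and Cenpf at 1.60 for other over small. Ccnd1 and Pcna were lower in other than in small GS_KO barcodes, with ratios of 0.581 (0.496 to 0.677) and 0.670 (0.539 to 0.826).

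Levels also moved with the UMIs of the barcode. In GS_KO, Mki67 stood at 4.25 CPM in barcodes of 200 to under 400 UMIs, 9.12 CPM at 400 to under 500, 10.7 CPM at 500 to under 1000 and 2.77 CPM (6 UMIs) at 1000 to under 2000. Top2a had its highest level in the same bin, 500 to under 1000 UMIs. Ccnd1 stood at 80.4 CPM in the lowest and 60.8 CPM in the highest of these 4 bins in control, and at 37.6 and 18.5 CPM in GS_KO, and was lower in GS_KO in each. Malat1 was higher in each following bin, from 1709 to 19289 CPM in control and from 1365 to 37297 CPM in GS_KO; its part in these trends was not tested.

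**Figure D3:**
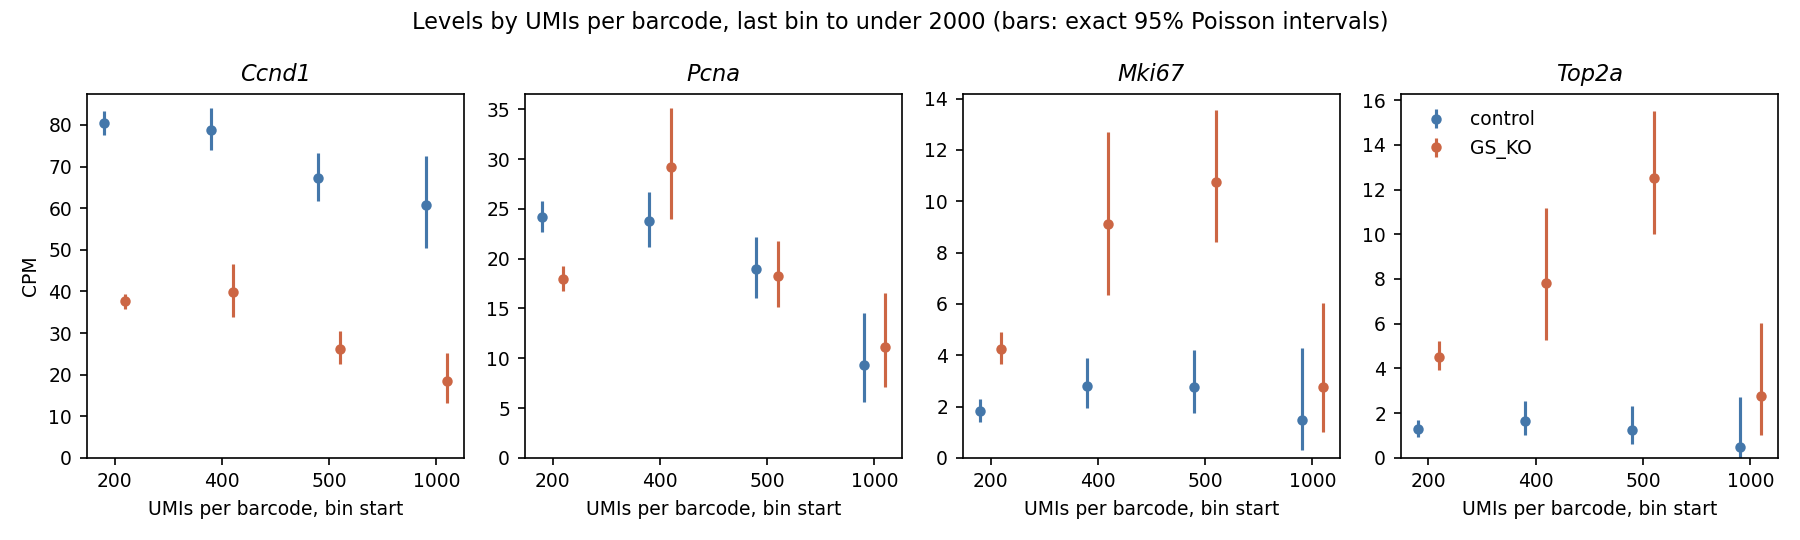
CPM (vertical) of Ccnd1, Pcna, Mki67 and Top2a by UMIs per barcode (bins starting at 200, 400, 500 and 1000, the last to under 2000) in both libraries, with exact 95% Poisson intervals. In GS_KO, Mki67 is highest at 500 to under 1000 UMIs (10.7 CPM), and Ccnd1 is at 37.6 CPM in the lowest bin and 18.5 CPM in the highest.

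With all 10 genes, 30 of 13692 large control barcodes (0.219%, 0.148 to 0.313) and 70 of 11871 large GS_KO barcodes (0.590%, 0.460 to 0.744) held at least 2. With each barcode thinned to 500 UMIs, 14 control (0.102%) and 54 GS_KO barcodes (0.455%) did. In control the most frequent pair was Ccnd1 with Pcna (12 barcodes). In GS_KO it was Mki67 with Stmn1 (17), then Mki67 with Top2a and Top2a with Stmn1 (14 each). Since Ccnd1 is the gene with the most UMIs and is also found in resting cells, the shares below leave it out.

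Without Ccnd1, 10 control barcodes (0.0730%, 0.0350 to 0.134) and 63 GS_KO barcodes (0.531%, 0.408 to 0.678) held at least 2 of 9 genes. Thinned to 500 UMIs, 6 and 49 did. Among barcodes of at least 1000 UMIs the share with all 10 genes was not higher in GS_KO: 6 of 1703 control (0.352%, 0.129 to 0.765) and 5 of 1834 GS_KO barcodes (0.273%, 0.0886 to 0.635) held 2 or more of the 10 genes, and 2 and 4 did without Ccnd1. Of the 63 GS_KO barcodes, 35 were Kupffer marker barcodes, 3.23% of the class (2.26 to 4.47), and 28 were other barcodes, 0.260% of theirs (0.172 to 0.375). In control, 3 of 191 Kupffer marker barcodes (1.57%, 0.325 to 4.52) and 7 of 13501 other barcodes (0.0518%, 0.0208 to 0.107) did. The Kupffer marker intervals of the libraries overlap, and those of other barcodes do not. Among small barcodes the share was 0.00429% in control and 0.0118% in GS_KO, at median depths of 335 and 300 UMIs against 574 and 605 in Kupffer marker barcodes.

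Among the 35 GS_KO Kupffer marker barcodes, 20 held Top2a, 18 Mki67, 17 Stmn1 and 11 Pcna, and 29 held Mki67 or Top2a. Among the 28 other barcodes, 15 held Top2a, 14 Mki67 and 12 Stmn1. The barcode with the most genes, 5 of 9, was an other barcode of GS_KO. Their median of 588 UMIs in the Kupffer marker class was close to the 605 of the whole class.

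The share depended on the Kupffer markers, by strata chosen after the values were seen. In GS_KO it was 0.205% (0.121 to 0.323) of large barcodes with 0 Kupffer marker UMIs, 0.5% (0.240 to 0.918) with 1 to 3, 3.44% (1.98 to 5.53) with 4 to 7 and 3.08% (1.86 to 4.77) with 8 or more. Mki67 stood at 3.36, 9.16, 49.7 and 57.0 CPM in the same 4 strata. The step lay between 1 to 3 and 4 to 7 marker UMIs, and the upper 2 strata did not differ beyond counting error. In control the shares were 0.0387%, 0.345%, 0.800% and 3.03%, the last on 2 of 66 barcodes.

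**Figure D4:**
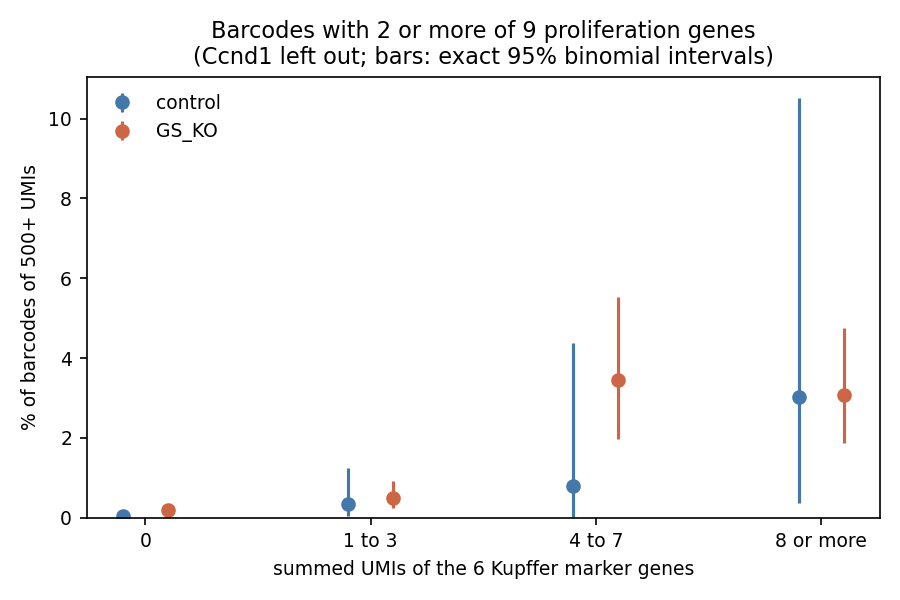
Percent of barcodes of at least 500 UMIs that hold 2 or more of 9 proliferation genes, Ccnd1 left out (vertical), by summed UMIs of the 6 Kupffer marker genes (horizontal) in both libraries, with exact 95% binomial intervals. In GS_KO the share is 0.205% at 0 marker UMIs and 3.44% and 3.08% in the upper 2 strata; the control intervals are wide there.

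The 28 GS_KO other barcodes with 2 or more of 9 genes were not of 1 kind. By a list of 10 B and plasma cell markers (at least 3 UMIs and more than any other list), 7 of them were B or plasma cell marker barcodes, out of 102 such barcodes (6.86%, 2.80 to 13.6). A further 3 were stellate cell marker barcodes, out of 257 (1.17%, 0.241 to 3.37). Of the rest, 6 held 1 to 3 Kupffer marker UMIs and 12 held 0. In the 12, hepatocyte markers summed to 67138 CPM, against 85030 CPM over all such barcodes. Liver sinusoidal endothelial marker barcodes held 0 of 134.

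The B and plasma cell marker barcodes of GS_KO held 5 UMIs of Mki67 (62.7 CPM, 20.4 to 146), 4 of Top2a (50.1 CPM, 13.7 to 128), 4 of Stmn1 (50.1 CPM) and 3 of Cdk1 (37.6 CPM, 7.76 to 110). In control, 0 of 36 such barcodes held 2 of the genes, which allows a share of up to 8.33% by the floor of 3 barcodes (exact upper bound 9.74%), so a share like that of GS_KO was not detectable there. In GS_KO Kupffer marker barcodes Mki67, Top2a, Stmn1 and Cdk1 stood at 53.7, 57.6, 52.4 and 17.0 CPM. The share with 2 or more of 9 genes was 3.23% (2.26 to 4.47) there and 6.86% (2.80 to 13.6) in GS_KO B and plasma cell marker barcodes. High levels were thus not particular to Kupffer marker barcodes.

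Other cell cycle genes were then read in the same barcodes. Lists of 35 S phase and 40 G2/M genes hold none of the 10. In GS_KO Kupffer marker barcodes, at least 1 UMI of either list was found in 260 of 947 barcodes with 0 of the 9 genes (27.5%), in 59 of 100 with 1 gene (59.0%, 48.7 to 68.7) and in 34 of 35 with 2 or more (97.1%, 85.1 to 99.9). The G2/M list summed to 271, 2493 and 6381 CPM in these sets, and the S phase list to 328, 1318 and 2171 CPM.

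GS_KO other barcodes showed the same order. There 19.9%, 33.3% and 82.1% (63.1 to 93.9) of barcodes with 0, 1 and 2 or more genes held a list UMI, and the G2/M list summed to 101, 515 and 5342 CPM. The control barcodes did not follow that order throughout. Among control other barcodes 21.6%, 21.9% and 71.4% (5 of 7) with 0, 1 and 2 or more genes held a list UMI, and among control Kupffer marker barcodes 25.8%, 0 of 6 and 3 of 3 did. In GS_KO, Malat1 was lower in barcodes with 2 or more genes: 2614 CPM against 9339 CPM with 0 genes in Kupffer marker barcodes, and 8115 against 24395 CPM in other barcodes. In control other barcodes it was not lower, at 12649 CPM (7 barcodes) against 10442 CPM. In control Kupffer marker barcodes it was lower, at 438 CPM (3 barcodes) against 6099 CPM.

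**Figure D5:**
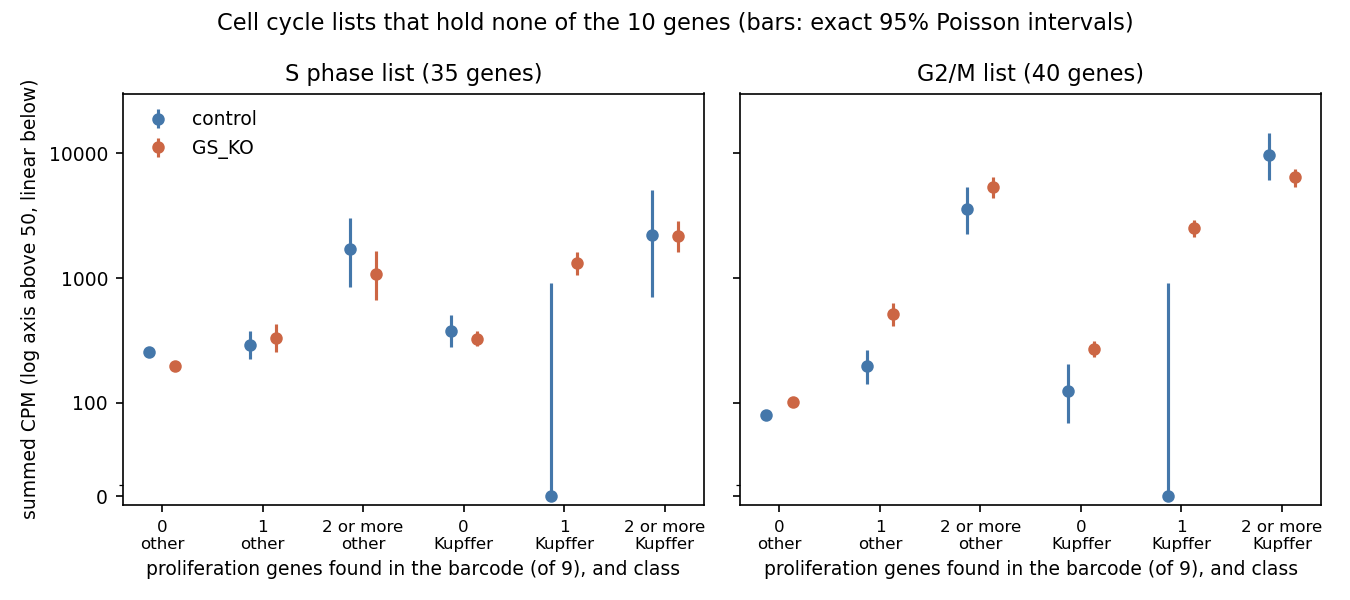
Summed CPM (vertical, log scale above 50 and linear below) of the S phase and G2/M lists in barcodes with 0, 1 or 2 or more of 9 proliferation genes, for other and Kupffer marker barcodes of both libraries, with exact 95% Poisson intervals. In GS_KO Kupffer marker barcodes the G2/M list rises from 271 to 2493 to 6381 CPM; the control Kupffer sets with 1 and with 2 or more genes are 6 and 3 barcodes.

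The genes most like the 10 were taken as those with the highest ratio of CPM in barcodes with 2 or more members over the rest of the class, both libraries together, with at least 5 UMIs in at least 3 of the barcodes. In the 42 Kupffer marker barcodes with 2 or more of all 10, the 10 genes were Ercc6l, Kif4, Prc1, Nuf2, Hist1h1b, Hist1h2ae, Ube2c, Birc5, Pclaf and Kif20b. Ube2c, which with its ligase marks cyclins for destruction, had 10 UMIs there and 10 in the rest of the class, and Pclaf, which binds the clamp made by Pcna, had 16 and 17. Hist1h1b and Hist1h2ae encode histones made in S phase. Leaving Ccnd1 out gave the same 10 genes.

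In the 58 other barcodes, 8 of the 10 leading genes were Pclaf, Anln, Glipr1, Ube2c, Birc5, Prc1, Hmmr and Cdca8. The remaining 2 were plasma cell genes: Mzb1 with 27 UMIs in 7 barcodes and the immunoglobulin segment Ighv1-81 with 134 UMIs in 3 barcodes, all from GS_KO. All 5 UMIs of Anln came from control.

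Across the wider pathway, S phase and G2/M genes were counted separately in other barcodes. Of 40 G2/M genes 21 passed the UMI minimum, with 4 past 2-fold higher in GS_KO and 0 lower (median log2 ratio 0.62), and the list summed to 84.7 CPM in control and 122 CPM in GS_KO. Of 35 S phase genes 25 passed, with 3 higher and 6 lower (median -0.02). Over all genes 14.4% were higher and 4.53% lower, so the share of G2/M genes counted higher was near that of all genes. Mcm10, a replication initiation factor, stood at 74.5 and 28.8 CPM, and Tk1, the thymidine kinase, at 25.6 and 11.5 CPM. In Kupffer marker barcodes few list genes reached the UMI minimum, and mostly through the larger GS_KO sums. The G2/M list as a whole summed to 290 CPM (37 UMIs) and 655 CPM (500 UMIs) there (log2 ratio 1.16, 0.69 to 1.70). The S phase list summed to 400 CPM (51 UMIs) and 473 CPM (361 UMIs) (0.23, -0.18 to 0.69).

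Partners and brakes of Ccnd1 gave mixed values. Of a list of 8 other cell cycle genes, mostly cyclins and the kinases they activate, 0 were past 2-fold in other barcodes. Ccnd3, another D-type cyclin, stood at 51.8 and 28.4 CPM (log2 ratio -0.87, -1.09 to -0.64), and Cdk6, a kinase that D-type cyclins activate, at 39.6 and 61.1 CPM (0.63, 0.43 to 0.82). Cdkn1a, which encodes the kinase inhibitor p21, stood at 6.11 CPM (61 UMIs) in control and 60.6 CPM (508 UMIs) in GS_KO other barcodes (log2 ratio 3.30, 2.92 to 3.72), and it was the only 1 of the 5 inhibitors counted past 2-fold. In Kupffer marker barcodes Cdkn1a had 2 UMIs in control (15.7 CPM) and 51 UMIs in GS_KO (66.8 CPM; 1.78, 0.16 to 5.17). Btg2, an antiproliferative gene, stood at 27.0 and 249 CPM in other barcodes.

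Among 19 E2F, RB and DREAM genes, 17 passed in other barcodes, with 2 higher and 1 lower, shares near the 14.4% and 4.53% of all genes. Rbl1, which encodes p107, stood at 1.80 and 5.61 CPM, and E2f7, a repressor of E2F targets, at 6.71 and 2.27 CPM. Among 17 growth signal genes, 15 passed, with 6 higher and 1 lower, against the 14.4% and 4.53% of all genes given above. The higher ones were Wwtr1, Egf, Tgfa, Hbegf, Btg1 and Btg2, which include the EGFR ligands Egf, Tgfa and Hbegf (Hbegf at 1.20 and 5.61 CPM). Ccn2 was lower.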

How the data were processed

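The deposited files hold, for each of 2 libraries, UMI counts per gene and barcode as whole numbers, not normalized. Per the file headers the counting tool was Cell Ranger 8.0.0, the build was mm10 per the submitters' processing notes, and per the labels' protocols the libraries are 10x 5-prime libraries. In the labels both cells and nuclei are named as the input. The sources used here do not say how the deposited barcodes were picked.

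Counts were summed over the barcodes of a class and divided by the class total (CPM), with no mitochondrial limit and no doublet removal. Ratios have 0.5 counts added to each sum, and fold ranges in the text are the raw ratios. A level of 0 was set against a floor of 3 counts. Class totals run from 127512 UMIs (control, Kupffer marker) to 43036904 UMIs (GS_KO, small), which sets the precision. Thinning drew 500 UMIs from each large barcode, seed 1. Groups came from the labels. All 10 members are named, and from each pathway list the 3 genes with most UMIs and those past 2-fold with at least 50 UMIs. The members and lists were chosen with earlier results of these data known. The ratio and its interval were run on simulated Poisson sums, for which such an interval holds by construction. The simulation left out UMIs that cluster in barcodes, such as the 44 Top2a UMIs in 33 GS_KO Kupffer marker barcodes. It therefore does not show how well the intervals hold for these data. Python 3.11.15, numpy 2.4.6, scipy 1.17.1, pandas 2.3.3 and matplotlib 3.10.9 were used. Alternatives changed scaling, counts added, UMI limits, marker threshold, filter and free RNA.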

Additional observations from a re-analysis of the deposited data

Results flagged for a closer look

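Cenpf differed in direction between barcode classes: GS_KO over control was 1.96 (log2) in other barcodes and -0.84 in small barcodes, 2.79 apart, with both intervals off 0. With large barcodes of at least 400 UMIs the first value was 0.78 (-0.02 to 1.56), so that holds at the 500 UMI limit and not at 400. Cenpf also differed between libraries in the ratio of large over small barcodes, 2.05 in GS_KO and -1.21 in control, 3.26 apart. Ccnb1 did the same, with 1.87 in GS_KO and -3.44 in control, 5.32 apart, where the control value rests on 0 UMIs in large barcodes and on the 0.5 counts added. With 1 mouse per group none of these differences was tested.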

How the results depend on the processing

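No paired analysis was possible because each group is 1 library of 1 mouse, and no replicate could be left out. Of 142 recomputed counts and shares, 115 stayed within 1.5 times the count or within the share's interval, and all those under another scaling or another count added did. Scaling by the median of ratios took a median of -0.13 off the log2 ratios of Kupffer marker barcodes between the libraries, which raised each by that size. An upper limit on UMIs per barcode removed none, since the largest held 3787.

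The limit on UMIs mattered most. With large barcodes of at least 1000 UMIs, 0 members were counted higher and 0 lower between libraries in Kupffer marker barcodes, where none reached the UMI minimum. In other barcodes 0 of the 3 members counted were higher. For Kupffer marker over other barcodes only 2 members then reached the minimum in each library. Of these, 1 was higher in control and 2 in GS_KO, and 0 were lower. The Kupffer marker log2 ratios of Top2a and Stmn1 changed sign there, each to -0.38, on 12 control barcodes with 0 UMIs of both genes.

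Members higher between libraries in Kupffer marker barcodes numbered 1 with at least 6 marker UMIs, 5 with no filter and 0 at 50 UMIs. In other barcodes they numbered 4 with no filter and 1 at 50 UMIs. Kupffer marker over other barcodes gave 10 in control with no filter, 3 at 50 UMIs and 3 with free RNA taken off. In GS_KO it gave 5 at 50 UMIs, a limit at which fewer members were counted. Cenpf, Ccnb1 and Mcm6 had 0 UMIs in control Kupffer marker barcodes, so with no filter their ratios there rest on the 0.5 counts added. They are among the 10 in control and the 5 between libraries, and nothing is read from those calls.

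The share of large control barcodes with 2 or more members was 0.134% at 400 UMIs, 0.352% at 1000 UMIs, 0.0730% without Ccnd1, 0.102% thinned and 0.00730% with at least 3 members. For GS_KO it was 0.273% at 1000 UMIs, 0.455% thinned and 0.236% with at least 3 members. At 1000 UMIs the GS_KO share was thus below the control share, on 5 and 6 barcodes and with overlapping intervals. Without Ccnd1 the counts there were 4 in GS_KO and 2 in control. In Kupffer marker barcodes it was 0% at 1000 UMIs and 0.524% with at least 3 members in control, and 2.20% at 400 UMIs, 1.87% at 1000 UMIs and 1.57% with at least 3 members in GS_KO. Restricting other barcodes to those with 0 Kupffer marker UMIs, or leaving out B and plasma cell marker barcodes, was chosen after seeing the data and moved no count by over 1.5 times, though the interval of Mki67 in other barcodes then included 0. The causes were not tested.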
